A study of Mus musculus with 36 samples.

Results

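Hand2 encodes a basic helix-loop-helix transcription factor of the posterior limb bud, where it acts upstream of Shh, the signal of the limb's polarizing region, and antagonizes Gli3, the main repressor of the Hedgehog pathway in the anterior limb. It is also required in the heart and the pharyngeal arches. Acetylation of histone H3 at lysine 27 (H3K27ac) marks active enhancers and promoters, and genes of cell identity often lie in broad, nearly continuous stretches of it. The window described here was chosen by position, as mm9 chromosome 8 from 59200000 to 60500000, with Hand2 at about 59.8 Mb. Earlier results of these data were known when it was chosen. It holds 40 of the 63594 consensus regions of the genome, a consensus region being a stretch that peaks of 2 or more of the 18 lists cover. Of 732259 peaks in all lists, 511 lay in the window, and 11 of these, each in 1 list only, fell outside every consensus region.

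The lists came from H3K27ac ChIP-seq of pooled forelimbs of FVB mouse embryos at embryonic day 11.5. Wild type (WT) gave 4 libraries, the mm1179 enhancer-null line 4, and the hs72, hs1262, hs1467, hs1586 and hs1603 enhancer-null lines 2 each. No embryo was treated. mm1179 is known as a limb enhancer of Gli3. A run tag in the file names, which the sample labels do not carry, puts replicates 1 and 2 of WT and mm1179 in run 1, replicates 3 and 4 of both with both hs72 libraries in run 2, and replicate 1 and replicate 2 of the other 4 lines in runs 3 and 4. The tags of runs 3 and 4 differ only in a last digit, which equals the replicate number and whose meaning the labels do not give. Runs 3 and 4 hold no WT library, so for hs1262, hs1467, hs1586 and hs1603 genotype and run cannot be told apart against WT. The lists held 26550 to 58753 peaks, and the length they covered was 62.6 to 86.0 Mb in run 1, 81.4 to 115.3 Mb in run 2, 89.6 to 93.6 Mb in run 3 and 140.9 to 166.0 Mb in run 4. Read depth is unknown, so a list without a peak shows only that no call was made there. In tissue, fewer cells with the mark and less of it per cell cannot be told apart.

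In the RefSeq annotation of GRCm38, another build, the genes next to Hand2 (gene 15111) are Hand2os1, a divergent long noncoding RNA also called Upperhand, and the pseudogene Gm17994 on one side, and the noncoding genes Gm34030 and Hdnr on the other. Positions of that build cannot be compared with the mm9 peaks, and no peak was assigned to a neighbour. The bases just before the start of Hand2 are shown because the gene's position falls inside the broadest peak of the window. They are the plus strand of GRCm38.p6 chr8:57320733-57320982 (RefSeq), with matches to CANNTG, the E-box motif bound by factors of Hand2's own class, in capitals.
Hand2 promoter: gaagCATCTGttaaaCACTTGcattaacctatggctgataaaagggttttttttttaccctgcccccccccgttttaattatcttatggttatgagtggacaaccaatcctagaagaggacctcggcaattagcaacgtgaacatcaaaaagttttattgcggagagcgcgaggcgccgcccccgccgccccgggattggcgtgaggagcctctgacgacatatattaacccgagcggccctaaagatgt
CANNTG, which is its own reverse complement, occurred 2 times, and 66.2% of 32841 promoter windows of 250 bases held it at least once. The Ets core GGAA and the TATA box TATAAA, searched on both strands, had no match in these letters, against 93.5% and 12.4% of promoter windows with one. The 250 bases held 15 CG dinucleotides against a median of 6 over all promoters, and their GC content was 49.2% against a median of 52.4%.

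The centre of the window was a single broad domain at Hand2. It ran from 59788858 to 59829693, or 40.8 kb, and was the 15th widest of all consensus regions. It started 11.1 kb before the 59.8 Mb position of the gene, which lay inside it. In the 4 WT libraries peaks covered 34.1, 36.2, 37.3 and 39.0 kb of it, in order of replicate number. The 4 mm1179 libraries covered 35.2, 32.5, 38.3 and 39.6 kb and the 2 hs72 libraries 38.5 and 39.7 kb. In run 4, replicate 2 of hs1262, hs1467, hs1586 and hs1603 covered 40.7, 39.5, 39.3 and 39.7 kb. Replicate 1 of these 4 lines, all of run 3, had no peak in it. The 14 lists with peaks therefore covered 79.5% to 99.7% of the domain and the other 4 covered 0%.

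**Figure D1:**
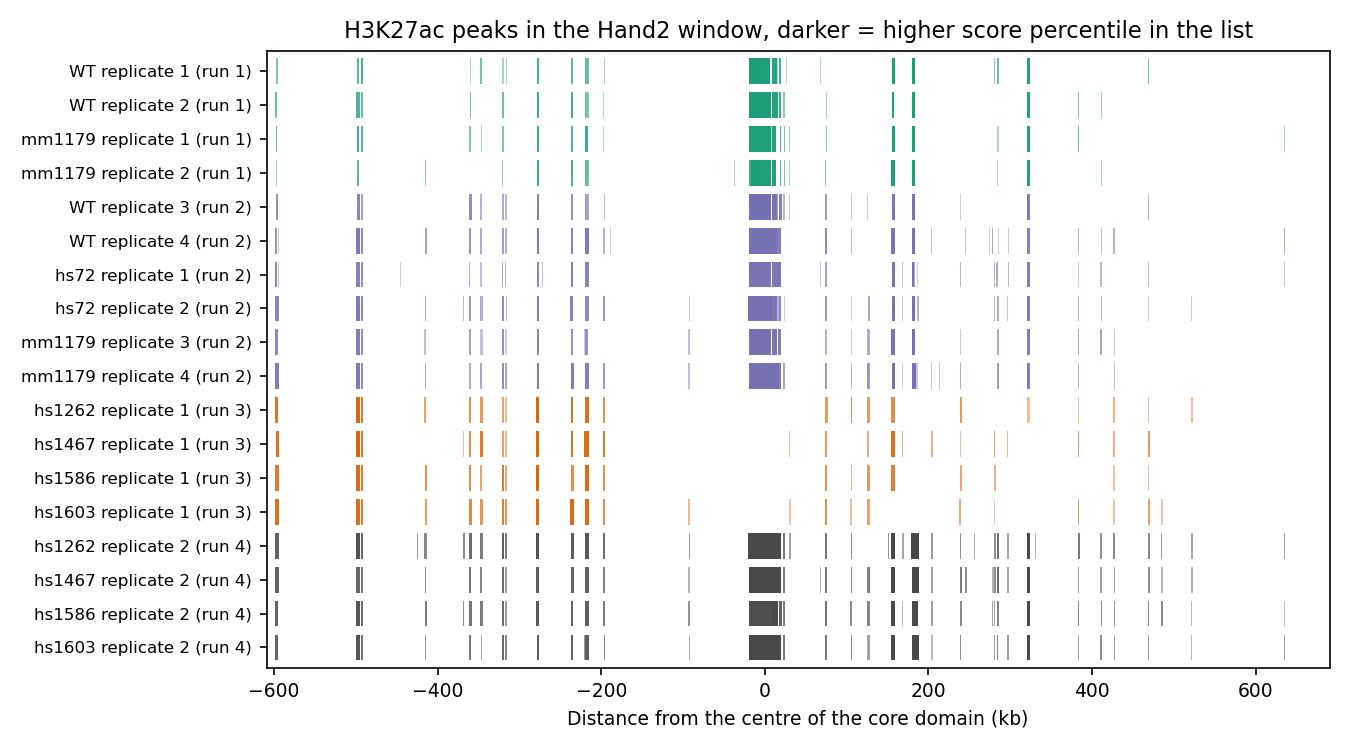
H3K27ac peaks of the 18 libraries (rows, ordered and coloured by run) against distance from the centre of the broad Hand2 domain in kb, with Hand2's upstream side to the left and darker bars for a higher score percentile within the list. The 40.8 kb block at the centre is present in 14 libraries and absent from the 4 of run 3, which have the narrow upstream peaks.

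The domain ranked among the strongest and widest peaks of the lists that called it. The authors' score, whose scale is not given in the sources used here, is used only as a rank within its own list. In WT the domain's best peak stood at percentiles of 99.1, 99.99, 99.99 and 99.2, and in mm1179 at 98.3, 99.5, 99.1 and 98.5. In hs72 these were 96.3 and 97.8, and in the run 4 libraries 96.5 to 96.9. A score of exactly 3100 was given to a peak of the domain by 9 of the 14 lists. It is shared by 289 to 3629 peaks in each of the 14, so many peaks tie there, though some score higher. The percentiles come from lists of different lengths, and their differences cannot show whether the domain changed. By width, the domain's widest peak was between the 4th and the 15th of its list in all 14.

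Libraries outside run 3 split the domain into different numbers of peaks. The 3 run 4 libraries hs1262, hs1467 and hs1603 replicate 2 each called 1 unbroken peak, of 41.0, 39.5 and 39.7 kb, and hs1586 replicate 2 called 3. The run 2 libraries called 2 to 4 peaks and the run 1 libraries 3 to 5. WT replicates 1 to 4 had 5, 3, 4 and 3 peaks, mm1179 replicates 1 to 4 had 5, 5, 3 and 2, and the hs72 libraries 2 and 4. The widest of them spanned 19.0, 26.4, 27.04 and 27.05 kb in WT and 26.1, 16.6, 27.8 and 36.5 kb in mm1179. The mean number of peaks was 4.5 in run 1, 3 in run 2 and 1.5 in run 4, whose lists also covered the most genome, and the part of that breadth in the splitting was not tested.

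The breaks on the right side of the domain fell at recurrent places. All 14 libraries covered the stretches from 59790261 to 59792556, from 59792583 to 59809145, from 59809891 to 59816040, from 59818351 to 59823295 and from 59827402 to 59828843. The 59.8 Mb position of Hand2 lies in the second of these, which is 16563 bp long. The 2 breaks on the left were rare. The first, of 26 bp, was covered by 13 of the 14 libraries, and the next, of 745 bp, by 12 to 13. Between the third and the fourth, 2310 bp were covered by 7 to 13 of the 14 libraries, and between the fourth and the fifth, 4106 bp were covered by 6 to 13. The pieces differed in rank. In WT replicate 3, for example, the peak from 59789982 to 59817017 had a percentile of 99.99, the next from 59818089 to 59823590 had 96.1, and the last from 59827071 to 59829693 had 84.0. The narrow piece between the last 2, from 59823748 to 59825879, stood at 41.7. In hs1586 replicate 2 the middle piece ranked highest, at 96.5 against 92.1 for the left one.

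**Figure D2:**
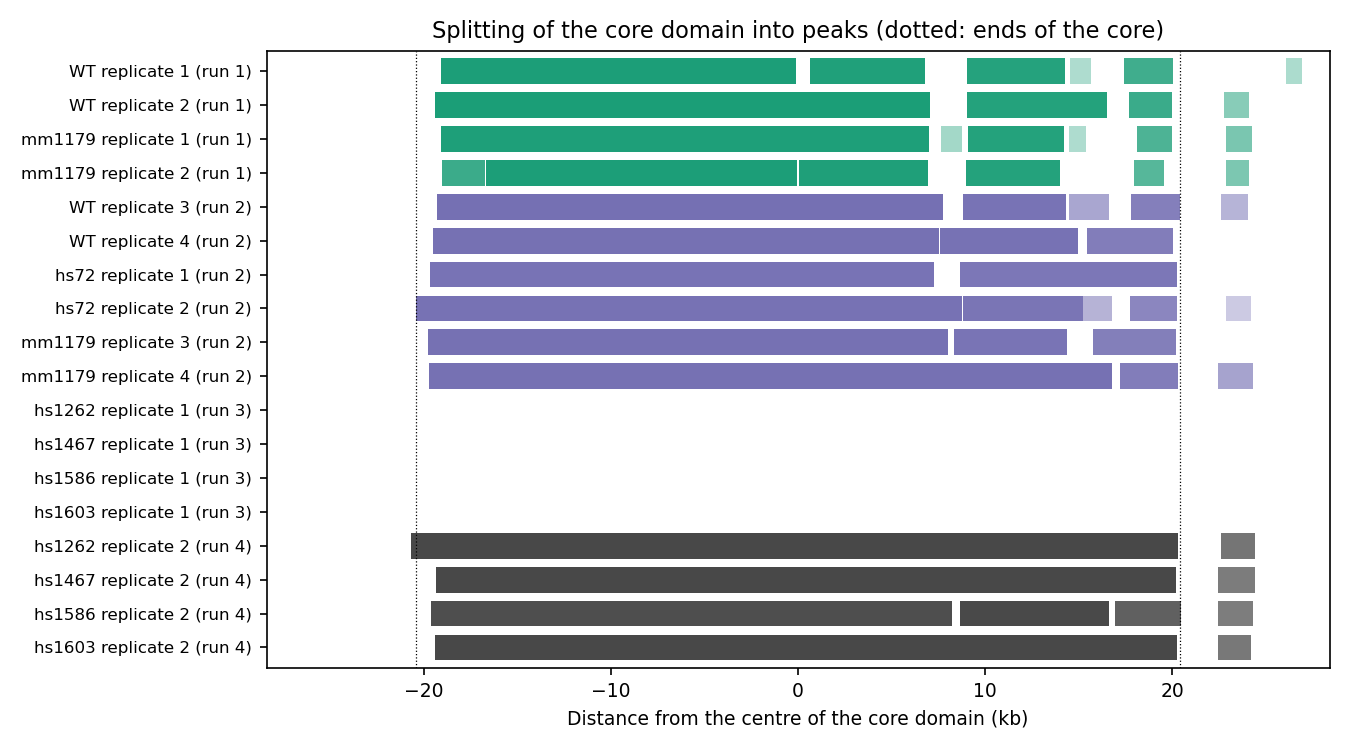
Peaks of the 18 libraries (rows, coloured by run) over the broad Hand2 domain, against distance from its centre in kb, with dotted lines at the domain's ends and darker bars for a higher score percentile. Run 1 libraries show 3 to 5 pieces with common breaks on the right side, 3 run 4 libraries show 1 piece, and run 3 libraries show none.

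In the domain, the mm1179 and WT libraries differed by less than their spread within each genotype. Covered length in the domain was 36.4 ± 3.20 kb in mm1179 and 36.6 ± 2.06 kb in WT (SD, n = 4 each), a difference of -0.243 kb (two-sided exact permutation p = 0.914). The number of peaks in the domain was 3.75 ± 1.5 and 3.75 ± 0.957 (SD, n = 4 each; exact permutation p = 1). The widest peak was 26.8 ± 8.15 kb in mm1179 and 24.9 ± 3.94 kb in WT (SD, n = 4 each; exact permutation p = 0.8286). Over the whole window, mm1179 peaks covered 88.2 ± 21.3 kb and WT peaks 83.8 ± 13.8 kb (SD, n = 4 each; exact permutation p = 0.771), in 26.0 ± 3.65 and 26.5 ± 4.93 peaks (exact permutation p = 0.943). Adjusted by Benjamini-Hochberg over these 5 measures, every exact p was 1, and the smallest that 4 against 4 libraries can give is 0.0286. The ranges of the groups overlapped in all 5. The spread within each genotype includes the difference between runs 1 and 2. With labels moved only within runs, the exact permutation p was 0.833 for covered length in the domain and 0.722 for the widest peak. In the window it was 0.611 for covered length and 0.944 for the number of peaks.

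For covered length, the 2 runs differed in direction. In the domain, mm1179 covered 33.8 kb and WT 35.1 kb on average in run 1, and 39.0 and 38.1 kb in run 2 (n = 2 each, exact permutation p = 0.667 in both runs). In the window these averages were 70.8 and 73.9 kb in run 1 (exact permutation p = 1) and 105.6 and 93.8 kb in run 2 (exact permutation p = 0.667). The mean number of window peaks differed by -0.5 in both runs, and that of domain peaks by 1 in run 1 and -1 in run 2. The widest peak differed by -1.36 kb in run 1 (exact permutation p = 0.667) and 5.11 kb in run 2 (exact permutation p = 0.333). In run 2 both mm1179 libraries, at 27.8 and 36.5 kb, lay above both WT libraries, at 27.04 and 27.05 kb. The difference in the domain turned positive without WT replicate 4 (0.543 kb), mm1179 replicate 1 (0.164 kb) or mm1179 replicate 2 (1.06 kb), and that in the window turned negative without mm1179 replicate 4 (-3.69 kb). The difference in the widest peak, 1.87 kb, was -0.0905 kb without WT replicate 1 and -1.38 kb without mm1179 replicate 4. The difference in window peaks, -0.5, was 1.67 without WT replicate 4, 0.167 without mm1179 replicate 1 and 0.833 without mm1179 replicate 2. With 2 libraries against 2, an exact p cannot go below 0.333.

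Region by region, no region of the window separated the 2 genotypes. Of the 36 regions called in at least 1 WT or mm1179 library, 0 had covered lengths in the 4 mm1179 libraries all above or all below those of the 4 WT libraries. Over the 54583 such regions of the genome, mm1179 lay above WT in 0.632% and below it in 0.236%. The count of 0 among 36 is near these shares and is not particular to the window. All 8 libraries called 11 of the 40 regions, against 30.6% of all consensus regions, 6 of them upstream of the domain, the domain itself and 4 downstream.

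The hs72 knockout could be set against the 2 WT libraries of its own run. Peaks covered 39.1 ± 0.810 kb of the domain in hs72 and 38.1 ± 1.20 kb in WT (SD, n = 2 each), and 101.3 ± 10.5 kb and 93.8 ± 13.2 kb of the window (exact permutation p = 0.667 for both). The window difference, 7.54 kb, was -1.83 kb without WT replicate 3 and 16.9 kb without WT replicate 4, and that in the domain, 0.965 kb, was 0.117 and 1.81 kb. Of 38 regions called in these 4 libraries, hs72 lay above WT in 6, against 16.3% over the genome, and below it in 2, against 7.9%. With 2 libraries against 2 such separations are frequent, and both counts were near the background. The 6 were mostly weak. The strongest, upstream from 59315526 to 59318056, had 2118 and 2199 bp covered in hs72 against 1795 and 1702 bp in WT. The others lay downstream, from 59977006 to 59978615, 60089187 to 60091362, 60092532 to 60095338, 60105761 to 60107539 and 60219633 to 60221526, and WT replicate 3 called none of them. The 2 regions below WT lay upstream. That from 59447737 to 59451550 had 1383 and 1804 bp covered in hs72 against 3564 and 2414 bp, and that from 59491503 to 59493802 had 1366 and 1372 bp against 1522 and 1744 bp.

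The side upstream of Hand2, a gene-poor stretch in which limb enhancers of the gene are known to lie, held 14 narrow regions of 1838 to 5505 bp. All 4 WT libraries called 10 of the 14, against 36.4% of all consensus regions, and all 18 libraries called 6, against 16.5%. Over the whole window these counts were 15 and 7 of 40 regions, near the same backgrounds. The 3 strongest in WT were those from 59529866 to 59533298, 59308950 to 59314454 and 59571359 to 59576081, at mean WT percentiles of 77.7, 73.0 and 67.1. All 18 libraries called each of the 3. The first, 277.7 kb from the domain's centre, was covered over 2420 ± 251 bp in WT, 2552 ± 298 bp in mm1179 (SD, n = 4 each), 2540 ± 117 bp in hs72 (SD, n = 2), 3217 ± 114 bp in run 3 and 3079 ± 303 bp in run 4 (SD, n = 4 each). The second was covered over 4245 ± 1108 bp in WT, 3931 ± 1128 bp in mm1179 and 5049 ± 155 bp in run 3 (SD, n = 4 each). The third was covered over 2202 ± 193 bp in WT and 2667 ± 639 bp in mm1179 (SD, n = 4 each). In these regions mm1179 and WT overlapped. The upstream region nearest the domain, from 59715719 to 59717961, was called in no WT library, in mm1179 replicates 3 and 4, in hs72 replicate 2, in 1 run 3 library and in all 4 of run 4.

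Downstream, 25 regions were called, mostly narrow and weak. All 4 WT libraries called 4 of them, against the background of 36.4%, and all 18 called 1, against 16.5%. Of the 4, 3 ranked higher in WT than any upstream region. The region from 59988678 to 59997420 had a mean WT percentile of 97.7, that from 59963659 to 59968639 one of 96.3 and that from 60129578 to 60133636 one of 89.6. The first was covered over 4086 ± 559 bp in WT and 4727 ± 1733 bp in mm1179 (SD, n = 4 each), and over 5314 ± 694 bp in hs72 (SD, n = 2). In the 4 run 4 libraries it was covered over 8560 ± 220 bp (SD, n = 4), and in run 3 it had no peak. The second was called in 17 libraries and the last in 15, with 3 and 1 of the 4 run 3 libraries among them.

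The 4 run 3 libraries had peaks in the upstream regions and none in the broad domain. They called 11 of the 14 upstream regions in all 4 libraries, against 28.6% of all consensus regions, and each upstream region in at least 1, against 59.8%. Over the whole window these counts were 16 and 30 of 40. Upstream, their peaks covered 36.3 kb in hs1262, 35.5 kb in hs1467, 38.7 kb in hs1586 and 43.4 kb in hs1603. This was above each of the run 1 libraries, at 15.2 to 23.0 kb, and overlapped the 35.7 to 46.2 kb of run 4, whose lists covered more of the genome. Per Mb covered by the list, run 3 had 0.388 to 0.485 kb upstream, above each library of the other runs, which had 0.242 to 0.284 kb in run 1, 0.312 to 0.360 kb in run 2 and 0.233 to 0.278 kb in run 4. Over all peaks of a list, the median width was 2295 to 2789.5 bp in run 3 and 2150 to 2343 bp in run 4. It was 1728 to 2139 bp in runs 1 and 2. The part of peak width in the upstream lengths was not tested. At the strongest upstream region the run 3 percentiles were 88.9 to 93.3, against 68.7 to 87.6 in WT, in lists of other lengths. The lists also differ at the top of the score, with 1 to 59 peaks at 3100 in run 3 and 398 to 668 in WT. The higher percentiles therefore do not show a stronger peak in run 3. The stretch without any peak around the domain was 268.5 kb long in hs1262 and in hs1586, 224.7 kb in hs1467 and 121.2 kb in hs1603.

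**Figure D3:**
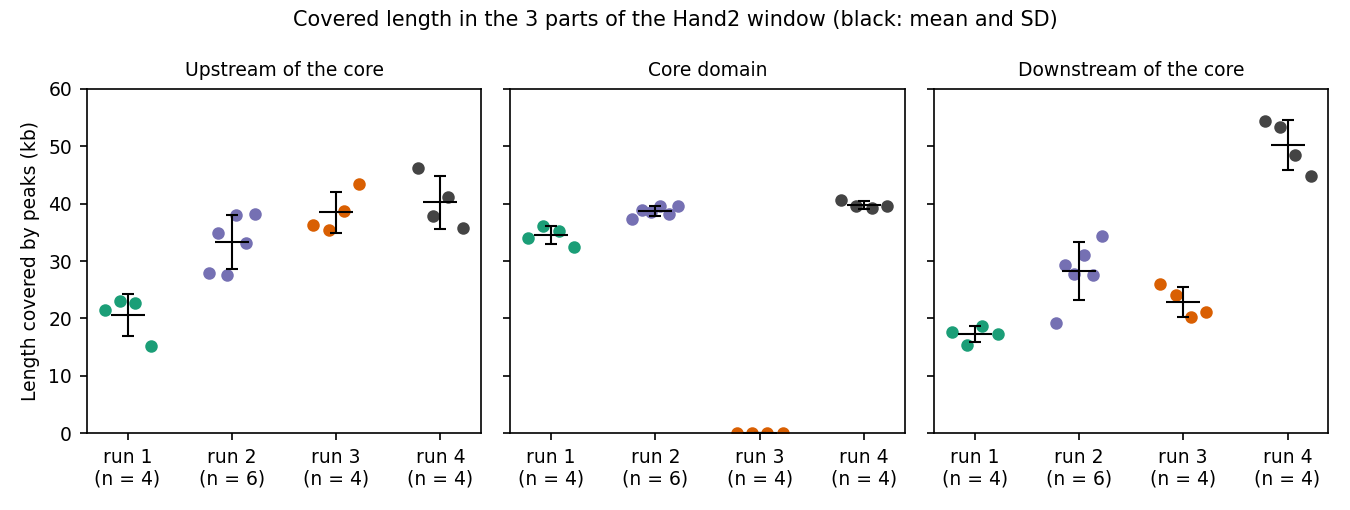
Length covered by peaks (kb) upstream of, within and downstream of the broad Hand2 domain, 1 point per library by run, with the mean and SD in black. Run 3 lies at 0 in the domain and at 35.5 to 43.4 kb upstream, where its range in kb, not scaled to the length of the lists, overlaps that of run 4.

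The same 4 lines were in runs 3 and 4, as replicate 1 and replicate 2. Run 4 covered 130.3 ± 8.63 kb of the window and run 3 61.3 ± 2.60 kb (SD, n = 4 each), a difference of 68.9 kb (two-sided exact permutation p = 0.0286, the smallest possible). The domain accounted for 39.8 ± 0.644 kb of run 4 and 0 kb of run 3 (exact permutation p = 0.0286, n = 4 each). The domain was picked as the widest region of these same lists, and no run 3 peak lies in it. The region and the values tested in it come from the same lists, so this p is not independent support. Peaks in the window numbered 36.5 ± 2.38 and 22.2 ± 1.71 (SD, n = 4 each; exact permutation p = 0.0286). Adjusted over these 3 measures, each exact p was 0.0286. Upstream of the domain alone, a comparison chosen after seeing the data, run 4 exceeded run 3 by 1.74 kb (exact permutation p = 0.6). Per Mb covered by the list, also chosen after seeing the data, the upstream difference was -0.165 kb (exact permutation p = 0.0286), run 3 being the higher. Without the domain, the window difference was 29.1 kb. On lists shortened to 26550 peaks each, run 4 minus run 3 was 35.1 kb in the window (exact permutation p = 0.0286, 0.0429 adjusted over the 3 measures) and -4.25 window peaks (exact permutation p = 0.0571). With differences taken within lines the exact p of each measure was 0.125, the smallest possible with 4 pairs. In 5 of the 40 regions every run 4 library lay above every run 3 library, and in 0 below, against 19.9% and 0.266% over the genome. These 5 were the domain, its neighbour from 59831726 to 59833678, the strong downstream region from 59988678 to 59997420 and those from 60092532 to 60095338 and 60219633 to 60221526.

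Absence from run 3 was not particular to the Hand2 domain. All 14 other lists called 11 regions of the window, and 2 of these, the domain and the region from 59988678, had no run 3 peak, against 23.5% over the genome. Such regions made up 7.03% of all consensus regions. Of the 965 regions at least 10 kb wide that all 14 other lists called, 77 had no run 3 peak, and of the 17 at least 40 kb wide, 2. Of the 418 with a mean WT percentile of at least 99, 9 had no run 3 peak, the Hand2 domain among them. These classes were chosen after values had been seen and are counts without a test.

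**Figure D4:**
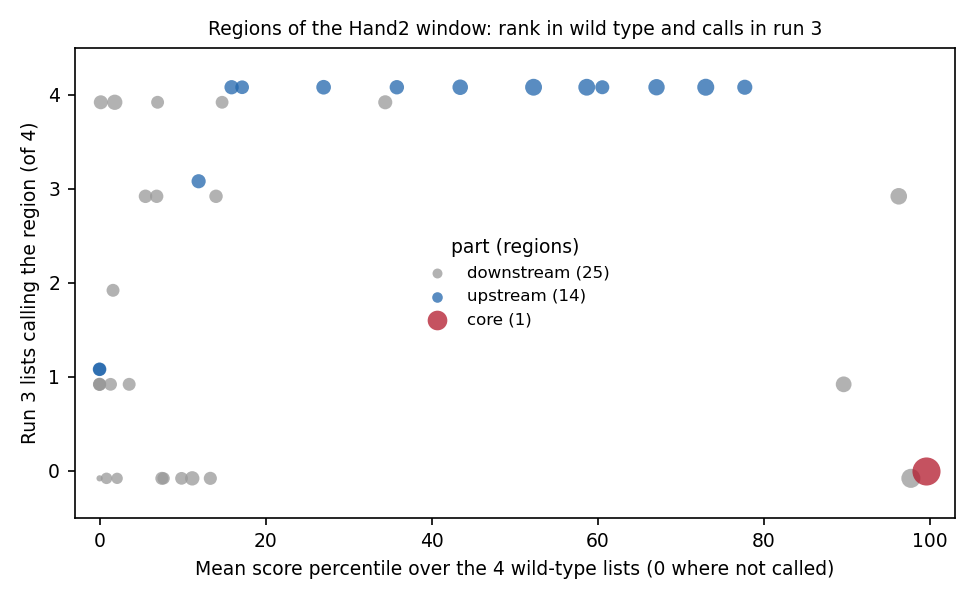
Each of the 40 regions of the window by its mean score percentile over the 4 WT lists (horizontal, 0 where not called) and by how many of the 4 run 3 lists called it (vertical, with small offsets by part), with larger points for wider regions. The domain and the 3 strongest downstream regions, at the right, had 0 to 3 calls, while 11 of the 14 upstream regions had 4.

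Other broad regions shared the pattern over the 18 libraries. Likeness was the Pearson correlation of the covered share of the region with that of the Hand2 domain over the 18 libraries, given as a description, since the libraries fall into runs and the 4 run 3 values set most of it. Among 967 other autosomal regions at least 10 kb wide the median was -0.0828, and 87 reached 0.9 or more. The most alike were 2 regions on chromosome 16, from 4638243 to 4664159 (r = 0.999) and from 4591583 to 4609302 (r = 0.998), then one on chromosome 7 from 139998191 to 140008576 (r = 0.997) and one on chromosome 2 from 165965423 to 165986739 (r = 0.996). None of these 4 had a run 3 peak. The next, on chromosome 18 (r = 0.996), was called in all 18 libraries, with 48.1% of its length covered in run 3 and 97.8% in run 4.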

How the data were processed

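H3K27ac ChIP-seq peak lists of 18 libraries, 1 per library, were used. The 18 input samples were not used here. Per the submitters' processing notes, the build was mm9 and MACS 1.4.2, Bowtie 0.12.8, cutadapt 1.1, bcl2fastq 2.17 and CASAVA were named as tools. Peak calling settings and the use of the inputs are not given in the sources used here. The deposited lists give a position and a score per peak (40 to 3233.06). The score is the authors' value for each peak, and it was used here only to rank or filter peaks within a list. Nothing in the labels says which embryos a library pooled. The p-values therefore set a difference only against the spread between libraries, which may be technical.

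An overlap of 1 bp with a peak counted as a call of a region. The core domain was the widest consensus region of the window. Differences between group means were tested by two-sided exact permutation over libraries. Named regions were the core, the 6 others with the highest mean WT percentile, any whose covered lengths separated mm1179 or hs72 from WT, and the 5 most alike regions elsewhere. The pathway list of Hand2 partners was not used, because no mm9 annotation was at hand. Alternatives were a minimum score of 100, lists of 26550 peaks, peaks joined across gaps under 1 kb, shares of each list's covered length, a core bounded by bases that all 4 WT lists cover, a window shorter by 200 kb at both ends, blocks, labels moved within runs and leaving out each library. The window, lists and tests were chosen with earlier results of these data known. Procedures were tested on small inputs with known answers. The search for regions with non-overlapping covered lengths was also tested on shuffled real values with planted shifts. Scripts ran in Python 3.11.15 with scipy 1.17.1, numpy 2.4.6 and, for figures, matplotlib 3.10.9. Positions count from 1, in mm9 unless stated.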

Additional observations from a re-analysis of the deposited data

Results flagged for a closer look

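Libraries that stood apart from the others of their group were sought with Dixon's test in groups of 4, a search that flags about 1 in 20 groups by chance. It was applied to 25 combinations of group and measure and marked 3. WT replicate 1 had a widest peak in the Hand2 domain of 18.983 kb, against 26.4 to 27.05 kb in the other 3 WT libraries; a gap of 745 bp divided its left part. Among the run 4 libraries, hs1586 replicate 2 had 3 peaks in the domain against 1 in each of the others, and its widest peak there was 27.804 kb against 39.5 to 41.0 kb. Where the other counts are tied, any differing count is marked, so the rate of 1 in 20 does not hold for it. Both run 4 marks come from the same split of the domain in the same library.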

How the results depend on the processing

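Among 134 alternative values, 112 left direction and call as they were, 18 turned in sign and 4 no longer passed a threshold that the main value passed. The 112 include 14 for the domain peaks of mm1179 minus WT, whose main difference of 0 has no direction; 10 of these were not 0, from -0.5 to 0.583. The cause was not tested unless stated. All sign changes but 2, both of run 4 minus run 3, were in comparisons whose main exact p was at least 0.667. With a minimum score of 100, mm1179 minus WT was 2 window peaks and 0.054 kb in the domain. On lists of equal length it was 1 window peak, and run 4 minus run 3 was -4.25 window peaks (exact permutation p = 0.0571). As a share of each list's covered length, hs72 minus WT in the domain was -0.0156 kb per Mb. Upstream of the domain only, run 4 minus run 3 was 1.74 kb (exact permutation p = 0.6), and as a share of each list's covered length it was -0.165 kb per Mb (exact permutation p = 0.0286), mm1179 minus WT -0.00981 and hs72 minus WT -0.00674 kb per Mb. With 1 library left out, mm1179 minus WT ranged from -3.69 to 12.04 kb and from -2.33 to 1.67 peaks in the window, from -1.32 to 1.06 kb and from -0.417 to 0.583 peaks in the domain, and from -1.38 to 5.25 kb for the widest peak. The hs72 minus WT difference in the window ranged from -1.83 to 16.9 kb. Leaving out 1 library of run 3 or 4 changed no direction or call.

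Same-numbered WT and mm1179 libraries share only a number and a run. The correlations of their deviations from the group means over 54583 regions ran from -0.0365 to 0.232, and 1 of 4 WT libraries correlated best with its own number. With the replicate block, the mm1179 minus WT differences were 4.32 kb and -0.5 peaks in the window, and -0.243 kb, 0 peaks and 1.87 kb (widest peak) in the domain, with no call changed. With the replicate block by line, run 4 minus run 3 was 68.9 kb, 14.25 peaks and 39.8 kb in the domain, each with an exact p of 0.125, the smallest that 4 pairs allow. Depth is unknown and limits all calls.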
